A study of Saccharomyces cerevisiae with 24 samples.

Results

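The spliceosomal RNAs of budding yeast were followed across wild type and 11 strains that each lacked 1 ribosomal protein gene. A gene counted as a member if a probe set on the array carried the name of U6 (SNR6), U5 (SNR7), U4 (SNR14), U1 (SNR19) or U2 (LSR1) and no other name. This gave 4 probe sets of 4 genes, of 5 genes in the rule and 9275 probe sets tested: SNR6 on chromosome XII, SNR14 on chromosome V, SNR19 on chromosome XIV and SNR7-L, the long form of U5, on chromosome VII. The set was selected on the signals of these arrays in the 12 strains, so its levels are given as a description. The reference annotation lists a short form of U5 at the same locus, and which forms the probe set reads was not tested. The 2 probe sets that name LSR1 also name GTS1, a protein-coding gene for which the annotation gives LSR1 as an older name, so U2 has no member here.

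Spliceosomal RNAs are small nuclear RNAs that carry bound proteins and assemble on each intron to remove it from the pre-mRNA. U1 pairs with the start of the intron and U2 with its branch point, and U4, base-paired with U6, joins together with U5 before U6 is released to form part of the catalytic core. U6 is made by RNA polymerase III and the others by RNA polymerase II, and in yeast many of the introns they act on lie in ribosomal protein genes. The mature RNAs carry no poly(A) tail.

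The wild type was BY4741, a haploid strain of mating type a with deletions at the auxotrophic markers HIS3, LEU2, MET17 and URA3. The 7 large subunit strains lacked RPL7A, RPL7B, RPL12A, RPL12B, RPL14A, RPL22A or RPL22B, and the small subunit strains lacked RPS0A, RPS0B, RPS18A or RPS18B. Each strain, named here by its missing gene (rpl7a and so on), was grown in YPD at 30 °C to early log phase and measured on 2 arrays, which the labels call biological replicates. Labelling started from an oligo-dT primer, and how far the signal of an RNA without a tail follows its amount was not tested.

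Array backgrounds ranged from 5.55 to 30.8 signal units (the highest in rps0a replicate 2), with median signals of 36.3 to 61.4. The deleted gene could be read alone in 7 strains, and in all 7 it fell. MFA1, a pheromone gene of mating type a, read 1051.3 to 9573.6 over the 24 arrays, while STE3, the receptor gene of the opposite mating type, read 6.9 to 19.2. STE3 was above background in 17 arrays. The alpha pheromone genes MF(ALPHA)1 and MF(ALPHA)2 were above background in 23 and 24, with highest signals of 44 and 49.1. In rpl14a all 4 mating type a genes followed were lower than in wild type (limma, adjusted p under 0.05, median log2 difference -1.73). In rpl7a and in rpl22a 1 of the 4 was lower. URA3 was above background in 0 arrays, MET17 in 6, LEU2 in 22 and HIS3 in 24.

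U6 was the member with the widest separation between strains. SNR6 read 24.5 and 29.2 in wild type (26.9 ± 3.32, SD, n = 2). In the small subunit deletions it read 78.9 and 156.9 in rps0a, 92.6 and 112.7 in rps0b, 98.1 and 56.3 in rps18a, and 62.4 and 85.7 in rps18b. All 8 of these arrays lay above every other array of the study. In the large subunit deletions it read 26.8 and 37.8 in rpl7a, 22.8 and 33.7 in rpl7b, 14.3 and 12.5 in rpl12a, and 24.2 and 15.3 in rpl12b. It read 34.6 and 41.5 in rpl14a, 20.3 and 17.5 in rpl22a, and 13.8 and 21.3 in rpl22b. The 14 large subunit arrays thus ran from 12.5 to 41.5 (median 22.1), on both sides of wild type, and the 8 small subunit arrays from 56.3 to 156.9 (median 89.2).

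Differences from here on are on the log2 scale after normalization between arrays, ± SE. They describe the members and were given no p, since the members were chosen with their values known. Relative to wild type, SNR6 differed by 1.94 in rps0a, 1.97 in rps0b, 1.71 in rps18a and 1.80 in rps18b, each ± 0.37. Among the large subunit deletions it ranged from -0.89 in rpl12a, where 1 of the 2 arrays was above background, to 0.48 in rpl14a. In bulk RNA, more SNR6 per cell and less of the other labelled RNA cannot be told apart. The mean of the 4 small subunit strains exceeded that of the 7 large subunit strains by 2.03 ± 0.24, a 4.08-fold ratio. By strain mean the small subunit deletions took the first 4 places, and the last of these, rps18a, did not overlap the next strain, rpl14a. The 2 rps0a arrays were far apart: the difference was 1.44 without replicate 2 and 2.44 without replicate 1.

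**Figure D1:**
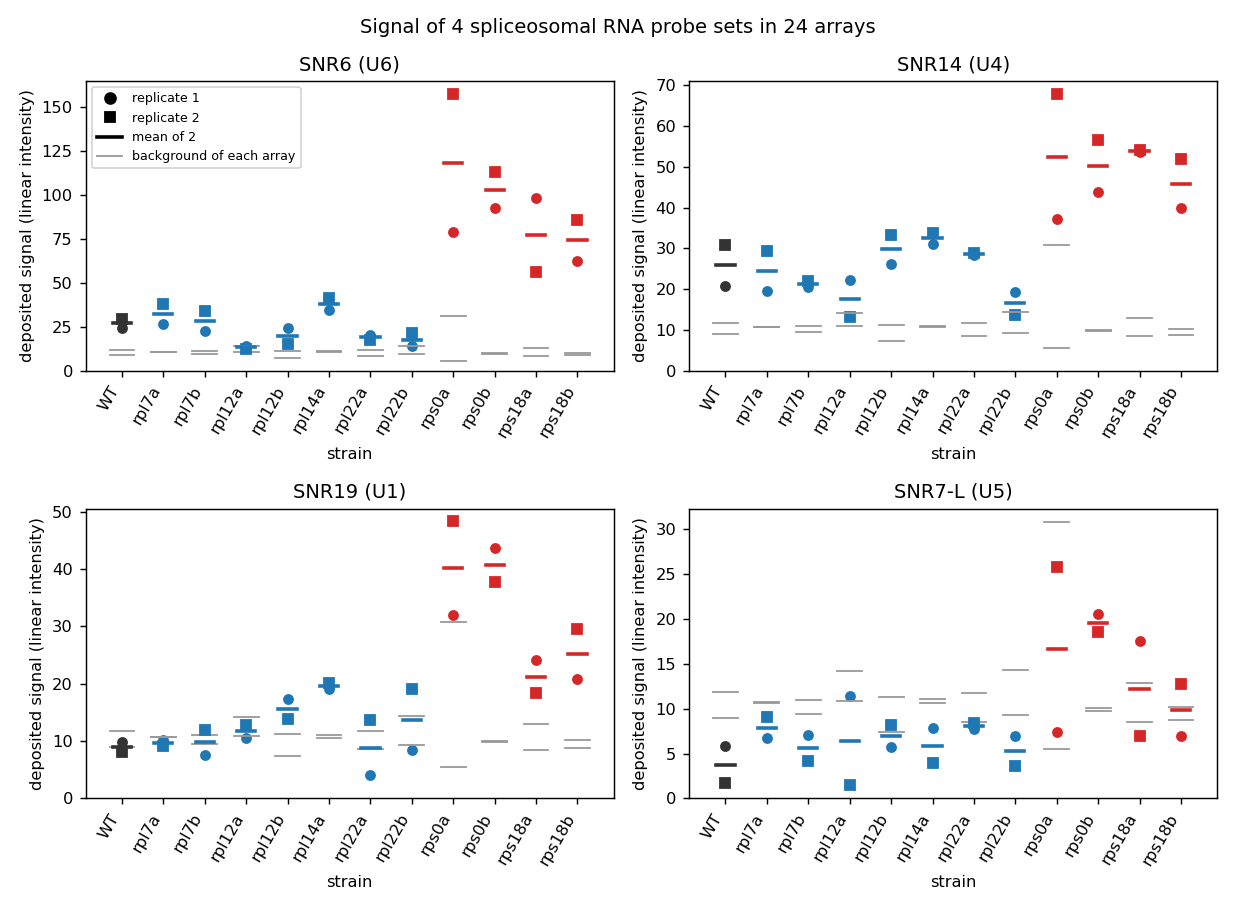
Deposited signal (linear intensity, each panel with its own scale) of the 4 spliceosomal RNA probe sets in each strain, with circles for replicate 1, squares for replicate 2, thick bars for the mean of 2 arrays and thin grey bars for the background of each array. Small subunit deletions are red, large subunit deletions blue and wild type black; for SNR6 and SNR14 all red points lie above all others, and for SNR7-L most points lie near or under the background.

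U4 pairs with U6 and keeps it inactive until the spliceosome is assembled. SNR14 read 20.8 and 30.9 in wild type (25.9 ± 7.14, SD, n = 2). It read 37.1 and 67.9 in rps0a, 43.8 and 56.6 in rps0b, 53.7 and 54.2 in rps18a, and 39.8 and 51.9 in rps18b. These 8 arrays again lay above the other 16, with less room than for SNR6: their lowest value, 37.1 in rps0a replicate 1, faced a highest value of 33.8 in rpl14a. The large subunit arrays read 19.6 and 29.3 in rpl7a, 20.5 and 21.9 in rpl7b, 22.2 and 13.1 in rpl12a, and 26.2 and 33.3 in rpl12b. They read 31.1 and 33.8 in rpl14a, 28.4 and 28.9 in rpl22a, and 19.3 and 13.7 in rpl22b. After normalization the gap closed, and the rps0a and rpl12b arrays overlapped.

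Relative to wild type, SNR14 differed by 0.79 in rps0a, 1.00 in rps0b, 1.30 in rps18a and 1.17 in rps18b, each ± 0.31. The rps0a difference was 0.47 without replicate 2 of that strain and 1.11 without replicate 1. The rps0b difference was 0.67 without its replicate 2 and 1.33 without replicate 1. Without normalization the rps18b difference was 0.84. The large subunit strains lay between -0.49 in rpl12a and 0.33 in rpl12b. In rpl12a and in rpl22b SNR14 was above background in 1 of the 2 arrays. The small subunit mean exceeded the large subunit mean by 1.11 ± 0.19, a 2.15-fold ratio. SNR14 lies on chromosome V, whose genes had a median difference of 0.93 in rpl12b (267 genes). SNR14 itself differed there by 0.33 ± 0.31, and by 0.71 and -0.06 with 1 of the rpl12b arrays left out in turn.

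For U1, the RNA that first marks an intron, the signals lay near the background outside the small subunit deletions, and the groups touched. SNR19 read 9.8 and 8.1 in wild type (8.95 ± 1.20, SD, n = 2), above background in 1 of the 2 arrays. It read 31.9 and 48.3 in rps0a, 43.7 and 37.8 in rps0b, 24.2 and 18.3 in rps18a, and 20.8 and 29.5 in rps18b. Both wild-type arrays lay below all 8 of these. On deposited signals the 4 rps0 arrays lay above the 4 rps18 arrays, but after normalization rps0a and rps18b overlapped. The large subunit arrays read 10.2 and 9.1 in rpl7a, 7.6 and 12 in rpl7b, 10.6 and 12.8 in rpl12a, and 17.4 and 13.8 in rpl12b. They read 19.1 and 20.2 in rpl14a, 4.1 and 13.6 in rpl22a, and 8.4 and 19 in rpl22b. Thus 3 of the 14, both of rpl14a and 1 of rpl22b, reached into the small subunit range, and 7 of the 14 were above background, against 8 of 8 in the small subunit deletions.

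Relative to wild type, SNR19 differed by 1.84 in rps0a, 2.16 in rps0b, 1.36 in rps18a and 1.71 in rps18b, each ± 0.45. The largest values among large subunit strains were 1.04 in rpl14a and 0.89 in rpl12b, and the lowest was -0.33 in rpl22a. With the floor on low values raised from 3.6 to 14.1, a level above both wild-type signals, the small subunit differences were 1.18, 1.49, 0.70 and 1.05, and those of rpl14a and rpl12b 0.38 and 0.10. The small subunit mean was at least 2.29-fold higher than the large subunit mean, a bound because SNR19 was not above background in rpl7a and rpl12a. The fitted difference was 1.35 ± 0.25. In rpl22a and rpl22b the replicates were so far apart that leaving out 1 array moved the difference from wild type between -1.17 and 0.50 and between 0.02 and 1.26.

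U5, which holds the exon ends together during splicing, was close to the limit of measurement. SNR7-L read 5.8 and 1.7 in wild type, with neither array above background. It read 7.4 and 25.8 in rps0a, 20.5 and 18.5 in rps0b, 17.5 and 6.9 in rps18a, and 6.9 and 12.7 in rps18b. It was above background in 5 of these 8 arrays, and the highest value, 25.8 in rps0a replicate 2, lay below the background of that array (30.8). The large subunit arrays ran from 1.5 to 11.4 (median 7), with 2 of 14 above background and 8 of 14 inside the small subunit range. All 8 small subunit arrays nevertheless exceeded both wild-type arrays.

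As a bound, SNR7-L was at least 1.85-fold higher in rps0b than in wild type. In rps0a, rps18a and rps18b it was above background in 1 of the 2 arrays, so no bound is given. With the higher floor the differences were 0.43 in rps0b, 0.14 in rps0a, 0.17 in rps18a and 0.0 in rps18b. Nor is a bound given between the small and the large subunit means, since some small subunit arrays were not above background. The fitted difference of these means was 1.02 ± 0.17, and 0.19 with the higher floor.

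Counted over members, the 8 small subunit arrays lay above all 16 others in 2 of the 4 (SNR6 and SNR14) on deposited signals, as they did in 0.173% of all probe sets. They lay above both wild-type arrays in 4 of 4, against 2.04% of all probe sets. On normalized values the counts were 1 of 4 (SNR6), against 0.453%, and 4 of 4, against 6.13%. The members were chosen with such values in view, so these counts describe them and support nothing.

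**Figure D2:**
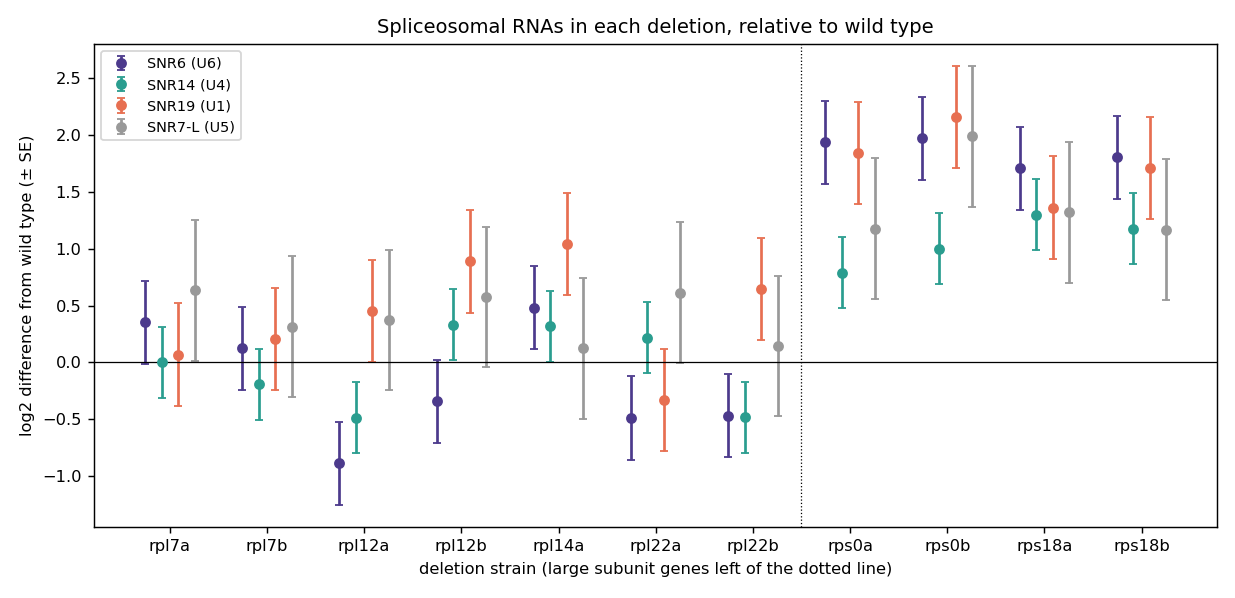
Log2 difference from wild type (± SE from the fit of all 12 strains, 2 arrays a strain) of the 4 spliceosomal RNAs in each deletion strain, with small subunit deletions right of the dotted line. Fitted differences lie between 0.79 and 2.16 in the small subunit deletions and between -0.89 and 1.04 in the large subunit deletions; all 11 share the same wild-type arrays, and SNR7-L was above background in neither of them, so that its points are not exact.

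The design asks whether copies of a duplicated gene differ in what their loss does. For SNR6 the rps0a and rps0b strains differed by -0.03 ± 0.37 and the rps18a and rps18b strains by -0.10 ± 0.37, less than their SE. The widest paralog gap of SNR6 was -0.54 ± 0.37 between rpl12a and rpl12b. For SNR14 the widest gaps were -0.82 ± 0.31 between rpl12a and rpl12b and 0.70 ± 0.31 between rpl22a and rpl22b. In rpl12a and in rpl22b SNR14 was above background in 1 of the 2 arrays. The median difference of its chromosome, V, was 0.93 in rpl12b. For SNR19 the widest gap was -0.98 ± 0.45 between rpl22a and rpl22b, and for SNR7-L it was -0.81 ± 0.62 between rps0a and rps0b. SNR19 was above background in 1 of the 2 arrays in each of rpl22a and rpl22b, and SNR7-L in 1 of the 2 in rps0a. In the small subunit pairs the gaps of SNR14 (-0.21 and 0.13) and SNR19 (-0.31 and -0.35) were smaller than their SE of 0.31 and 0.45.

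After the 4 small subunit strains, rpl14a came next for SNR6 and SNR19 and followed rpl12b for SNR14. In rpl14a the genes of chromosome VIII, which holds no member, had a median difference from wild type of 0.79 (259 genes). The rpl12a strain was last for SNR6 and SNR14, with 1 of its 2 arrays above background for each. Most neighbours in these orders overlapped in their normalized arrays, apart from a few such as rps18a and rpl14a for SNR6 and SNR19. For SNR7-L no order of the large subunit strains is given, since it was above background in 2 of their 14 arrays.

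The 2 probe sets that name both LSR1 and GTS1 did not separate the groups. The first read 15.7 and 11.6 in wild type, 3.1 to 19 in the small subunit arrays and 4.5 to 24.5 in the large subunit arrays. The second read 11.2 and 17.3 in wild type, 6.3 to 33.7 and 8.5 to 28.8. Small minus large subunit differences were -0.15 ± 0.35 and 0.13 ± 0.19. Which of the 2 genes they read was not tested, and no value is given for U2 itself.

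Lists of genes whose proteins bind or process the spliceosomal RNAs had small median differences between the same groups of strains. Of 102 genes in 7 lists of splicing factors and snRNA maturation factors, all measured and above background in at least 1 strain, 1 passed the limma threshold (adjusted p under 0.05) between small and large subunit deletions, 0.980%, against 3.32% of all probe sets. At an unadjusted p under 0.05 14 of the 102 passed (13.7%, against 17.3% of all probe sets). That comparison was chosen after seeing the data, so these counts are a description and its differences are given without p. The 1 gene past the adjusted threshold was RRP6, a nuclear exosome nuclease that trims small RNA ends, at 0.51 ± 0.12. It missed the threshold in 25 of 40 fits with another setting, an array or a strain left out. Larger differences that did not pass included -0.68 ± 0.17 for SLU7, -0.78 ± 0.60 for SNT309 and 0.60 ± 0.28 for YSF3. SNT309 was not above background in some small subunit strains, nor YSF3 in some large subunit strains. RRP6, SLU7 and YSF3 were named after their values were seen. List medians were -0.08 for the 7 proteins of the Sm ring, which binds U1, U2, U4 and U5, with 1 of 7 positive, and 0.01 for the 7 proteins of the Lsm2-8 ring, which binds U6. They were 0.15 for U1 proteins, -0.04 for U2 proteins, 0.10 for U4, U5 and U6 proteins, -0.05 for the Prp19 complex and other factors, and 0.18 for transcription end, processing and capping factors. The median over all 102 was 0.04, with 57 positive, beside -0.0014 over all probe sets.

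**Figure D3:**
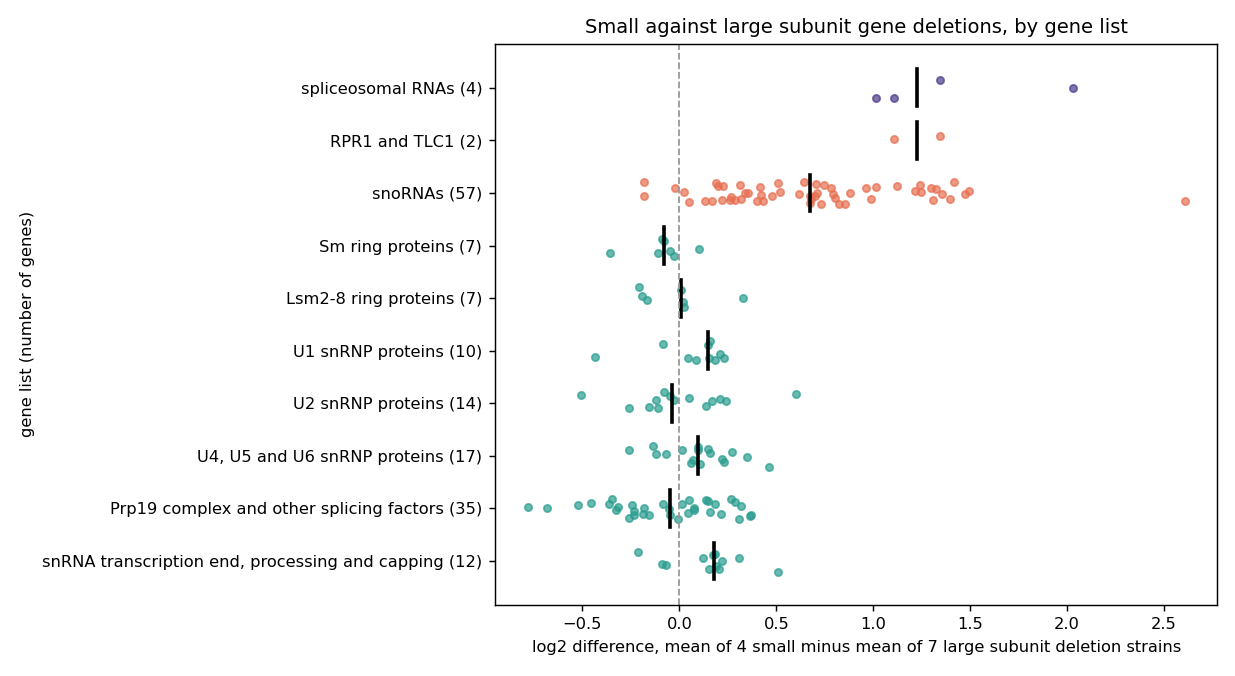
Log2 difference between the mean of 4 small and the mean of 7 large subunit deletion strains, with 1 point a gene and a black bar at each list's median; points are spread vertically only for visibility. SNR6 lies at 2.03, SNR14 at 1.11 and the snoRNAs around 0.67. The points of SNR19 (1.35) and SNR7-L (1.02) are fitted values of genes not above background in some large subunit strains. For SNR19 only a bound of at least 2.29-fold holds, and for SNR7-L no bound is given. The 7 lists of splicing proteins have medians between -0.08 and 0.18.

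Against wild type, the splicing protein genes that passed lay mostly in rpl7a, where 9 of 102 rose and 1 fell (9.80% in either direction, against 6.54% of all probe sets in that strain). Of the 9 that rose, 8 were among the 12 list genes on chromosome XVI, whose genes had a median difference of 0.94 in rpl7a (444 genes); of the other 90 list genes 1 rose and 1 fell. On chromosome XVI the Sm ring gene SMX3 rose by 0.85 ± 0.14 (limma, adjusted p = 0.00281), the cap-binding gene CBC2 by 0.97 ± 0.17 (0.00406) and PUS1, a pseudouridine synthase that modifies U2, by 1.56 ± 0.22 (0.00108). SNT309, of the Prp19 complex, was at least 5.76-fold higher (adjusted p = 0.00311). These 4 passed also with any 1 of the rpl7a or wild-type arrays left out. SNT309 and PUS1 passed as well under the 6 other settings tried, while SMX3 and CBC2 missed the threshold without normalization (adjusted p = 0.310 and 0.302) and with median centring (0.108 and 0.0539).

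The other named genes in rpl7a depended on single arrays, and all but CWC27 also on normalization. RDS3, of the U2 particle (1.34 ± 0.27, limma adjusted p = 0.00821), missed the threshold without either wild-type array or rpl7a replicate 2 (0.0517 to 0.0601). PRP4, of the U4 and U6 particle (1.04 ± 0.19, 0.00428), missed it without rpl7a replicate 1 (0.0562). The prolyl isomerase gene CWC27 (1.82 ± 0.37, 0.00878) missed it without wild-type replicate 1 or rpl7a replicate 1 (0.0640 and 0.117). On chromosome XIII, CEF1 of the Prp19 complex (0.71 ± 0.20, 0.0479) and STO1, the partner of CBC2 in the cap-binding complex (-0.83 ± 0.20, 0.0246), missed it without either wild-type array or rpl7a replicate 1 (0.155 to 0.343 and 0.0794 to 0.237). Without normalization the adjusted p was 0.127 for RDS3, 0.119 for PRP4, 0.0868 for STO1 and 0.249 for CEF1. CEF1 missed the threshold also with median centring (0.0542) and with log2(value + 1) (0.0679).

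Elsewhere few splicing genes passed. In rpl12b 3 of 102 rose (2.94%, against 2.1% of all probe sets), SMB1 of the Sm ring by 1.84 ± 0.37 (limma, adjusted p = 0.0207), LSM5 of the Lsm ring by 1.01 ± 0.20 (0.0186), both on chromosome V, and SNT309 by at least 2.99-fold (0.0429). In rpl14a RNT1, the RNase III that cuts the ends of snRNA precursors, rose by 0.67 ± 0.16 (0.0380) and PRP39, of the U1 particle, fell (-0.70 ± 0.16, 0.0269), 2 genes where 3.33% of probe sets passed. In rpl22a RNT1 (0.78 ± 0.16, 0.0240) and SNT309 (at least 3.15-fold, 0.0358) rose, where 2.44% passed, and in rps0b RNT1 rose (0.75 ± 0.16, 0.0329), where 2.61% passed.

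None of these 8 results passed in all 4 fits with a wild-type array or an array of the strain left out. LSM5 and SNT309 in rpl12b, SNT309 in rpl22a and RNT1 in rps0b missed the threshold in all 4 (adjusted p from 0.0604 to 0.279). Of these fits, SMB1 passed only without wild-type replicate 2 (otherwise 0.0890 to 0.241), PRP39 only without rpl14a replicate 2 (0.116 to 0.182), and RNT1 only without replicate 1 of rpl14a (0.163 to 0.356) or of rpl22a (0.111 to 0.165). Without normalization all but SNT309 in rpl22a missed it (0.0929 to 0.446), and with median centring LSM5, PRP39 and the RNT1 results did (0.0520 to 0.105). With log2(value + 1) RNT1 missed it in rpl14a (0.0674) and rps0b (0.0542), and with the higher floor SNT309 did in rpl12b (0.170) and rpl22a (0.0994).

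In rps0a, rps18a and rps18b, where the spliceosomal RNAs were high, 0 of the 102 genes passed in limma, as in rpl7b, rpl12a and rpl22b. At an unadjusted p under 0.05 11, 7 and 9 of the 102 did (10.8%, 6.86% and 8.82%, against 11.8%, 12.6% and 10.6% of all probe sets), and 0, 6 and 7 (0%, 5.88% and 6.86%, against 2.65%, 8.58% and 4.26%). At the adjusted threshold the shares of all probe sets were 0.28%, 0.668% and 0.323%, and 0.0323%, 0.291% and 0.0216%. In rps0a 8 of the 102 passed without replicate 1, when 459 of all probe sets did. The list medians against wild type were 0.08 in rps0a, 0.22 in rps0b, 0.12 in rps18a and 0.05 in rps18b.

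Other small RNAs were also higher in the small subunit deletions. RPR1, the RNA of the nuclease RNase P, like U6 a product of RNA polymerase III, read 161.1 to 331.2 in the small subunit arrays (median 236.1), 64.1 to 188.0 in the large subunit arrays (median 85.5), and 98.3 and 98.7 in wild type. The groups overlapped, and the small minus large subunit difference was 1.35 ± 0.17. The telomerase RNA TLC1, made by RNA polymerase II, had differences of 1.01 ± 0.18 and 1.11 ± 0.14 in its 2 probe sets. The groups overlapped in both. Its first probe set read 79.3 to 183.6 in the small subunit arrays, 46.9 to 135.8 in the large subunit arrays, and 101.2 and 100.6 in wild type. Its second, the brighter, read 151.5 to 279.0, 66.1 to 162.1, and 109.9 and 144.6. Only the second is used against wild type below. Against wild type, RPR1 rose by 1.82 ± 0.30 in rps0b (limma, adjusted p = 0.00733; 0.0516 to 0.0635 without either wild-type array or rps0b replicate 2, and 0.0997 without normalization). TLC1 rose by 1.02 ± 0.21 in rps18a (0.0437), and missed the threshold in all 4 fits with an array left out (0.0883 to 0.270), without normalization (0.152) and with log2(value + 1) (0.0698). The RNA SCR1 shares its probe set with another name and NME1 was not matched.

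Small nucleolar RNAs (snoRNAs), which guide the chemical modification and cutting of ribosomal RNA, lay on the same side. Of 57 snoRNA genes 25 were higher and 0 lower in the small subunit deletions past the limma threshold (43.9%). Of all probe sets 2.23% were higher and 1.09% lower. The comparison of small with large was chosen after seeing the data, so these counts are a description. The median snoRNA difference was 0.67, with 54 of 57 positive. SNR52, which like U6 is made by RNA polymerase III, had the largest difference of the snoRNAs, 2.61 ± 0.27. It read 163.8 to 347.9 in the small subunit arrays, 22.2 to 80.7 in the large subunit arrays, and 28.3 and 71.2 in wild type, with no overlap.

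The genes most like each member over the 12 strain means were sought among 5746 probe sets with 1 name and a signal above background in at least 10 strains. These correlations share the arrays and the 4 high strains and are descriptions. For SNR6 they were the snoRNAs SNR8 (r = 0.949) and SNR11 (0.944) and DBP3 (0.940), a helicase gene of ribosome assembly. For SNR14 they were UTP8 (0.930), of the small subunit processome, SQT1 (0.911), a chaperone of a large subunit protein, and NUP116 (0.896), of the nuclear pore. For SNR19 they were RPR1 (0.948), TAD2 (0.927), a tRNA deaminase, and DED1 (0.909), a helicase of translation initiation. For SNR7-L they were TCP1 (0.933), of the chaperonin CCT, SAP185 (0.932), a partner of the phosphatase Sit4, and TRM1 (0.929), a tRNA methyltransferase. SNR7-L itself was above background in 6 of the 12 strains and SNR19 in 10, so 6 of the strain means behind the last 3 correlations are not above background.

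Among these most similar genes the RNAs had the larger differences. Small minus large subunit differences were 1.47 ± 0.13 for SNR8, 1.22 ± 0.18 for SNR11 and 1.35 ± 0.17 for RPR1. They were 0.81 ± 0.11 for TAD2, 0.65 ± 0.09 for DBP3, and between 0.33 and 0.46 for the other 7 protein-coding genes. These are differences within a probe set, not levels.

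Measures of RNA quality overlapped between the groups. The ratio of 3′ to 5′ signal of ACT1 was 1.84 to 2.28 in the small subunit arrays (median 2.01), 1.68 to 2.33 in the large subunit arrays (median 2.03) and 2.05 to 2.19 in wild type. A probe set of 25S ribosomal RNA read 1.8 to 255.4 (median 15.8) and 8.9 to 652.3 (median 16.4), and 11.7 and 18.7 in wild type. Its high values were all in replicate 1, of rpl12a (652.3), rpl14a (384.3), rpl22b (294.3) and rps0b (255.4). Every other array read 24.4 or less. A second 25S probe set was highest in the same arrays. A probe set of 18S ribosomal RNA was higher in the small subunit arrays (median 8.9, highest 61.7) than in the large (6.45 and 29.4), and reached 8.3 in wild type. The labels give no day of culture, extraction or hybridisation, and whether the small subunit strains were handled together was not tested.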

How the data were processed

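Total RNA of 12 strains (24 arrays, 2 per strain) was measured on Affymetrix YG-S98 arrays. For each array the authors deposited a linear intensity per probe set, and their summarisation and scaling of probes are not stated in the labels or file headers. Of 9335 probe sets, 60 controls were set aside, leaving 9275 (6504 with 1 gene name, 328 with several, 2443 with none); names were updated through the reference annotation. Values under 3.6, the 10th percentile of all deposited values, were raised to it, and log2 values were quantile normalized. Controls for 19 sequences absent from yeast set each array's background (their 95th percentile), and a probe set was above background in a strain if it exceeded it in at least 1 array. For a strain or group not above background a bound was set from that limit.

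Each deletion was compared with wild type by contrasts of strain means estimated jointly over the 12 strains (R 4.3.3 and limma 3.58.1, with 12 degrees of freedom left for the residual), with Benjamini-Hochberg adjustment over 9275 probe sets and a threshold of 0.05. Small against large subunit deletions were compared over strain means, 4 against 7, a comparison added after seeing the data. The steps were tested on simulated data. The number of arrays limits the precision.

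The members and the gene lists were chosen with earlier results of these data known. Named genes were the members, the 3 genes most correlated with each over strain means, every list gene past the threshold in a deletion (the 4 largest changes where a list had over 4), and the other stable small RNAs. Each result was recomputed with log2(value + 1), with a higher floor (25th percentile, 14.1), with median centring, without any normalization, without the 25% of probe sets that were dimmest, with replicate number as a block, and without each array or strain.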

Additional observations from a re-analysis of the deposited data

How the results depend on the processing

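For the spliceosomal RNAs, 1280 of 1309 alternative values of the 44 differences from wild type moved by less than the spread between replicates. Another 29 moved by more, 18 of them by leaving out an array and 10 by the higher floor. Most of the 1309 values leave out an array of a strain outside the difference, which could hardly move it. The share that stayed is therefore no measure of stability. The small minus large subunit differences moved once in 159 values (SNR7-L, 0.19 with the higher floor). With 1 array or strain left out they ranged from 1.91 to 2.15 for SNR6, 1.02 to 1.20 for SNR14, 1.22 to 1.48 for SNR19 and 0.82 to 1.18 for SNR7-L. Without the dimmest 25% of probe sets SNR7-L had no value. No normalization put the median of all probe sets at -0.17 in rpl7a, -0.14 in rpl12b, -0.18 in rpl22b, -0.25 in rps18a, -0.36 in rps18b and -0.13 in the mean of the deletions, and median centring at -0.10 in rps0a. Signal over background limits SNR19 and SNR7-L.

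Whether same-numbered arrays were handled together was not tested. Over 66 pairs of strains their deviations correlated from -0.015 to 0.19 (median 0.064), with 19 above 0.1. The replicate block left the members' differences as they were and gave 87 probe sets in the mean of the deletions, 56 in rpl12a, 477 in rpl14a, 373 in rpl22a, 45 in rps0a, 418 in rps0b, 163 in rps18a and 48 in rps18b. Each of these counts was above that without the block. With the block, splicing genes numbered 1 in the mean of the deletions, 4 in rpl22a, 1 in rps0a and 2 in rps0b.

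Probe sets past the threshold without normalization numbered 16 in rpl12a, 10 in rpl12b, 90 in rpl14a, 82 in rpl22a, 367 in rpl7a, 16 in rps0a, 76 in rps0b, 202 in rps18a, 64 in rps18b and 162 between small and large subunit deletions (92 higher, 70 lower, against 207 and 101). With median centring they numbered 121 in rpl12b, 187 in rpl14a, 65 in rps0a and 102 in rps18a, and split 130 to 107 between small and large. With the higher floor they numbered 65 in the mean of the deletions, 4 in rpl22b and 105 in rps18a, and with log2(value + 1) 13, 16 in rps0a, 135 in rps0b and 38 in rps18a. Splicing genes without normalization numbered 0 in rpl12b, rpl14a, rps0b and small against large, 1 in rpl22a and 3 in rpl7a. With median centring they numbered 0 in rpl14a, rps0b and small against large, and 1 in rpl22a. With log2(value + 1) they numbered 1 in rpl14a and 0 in rps0b and small against large, with the higher floor 2 in both of these, and without dim probe sets 1 in rpl22b and 2 in small against large. Of all probe sets, 247 passed in rpl14a and 220 in small against large with log2(value + 1). With the higher floor 303 passed in rps0b and 341 in small against large. Without dim probe sets 3 of 6956 passed in rpl22b and 325 of 6956 in small against large. The causes were not tested.

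With 1 array left out, probe sets ranged from 15 to 66 in the mean of the deletions, 17 to 27 in rpl12a, 52 to 168 in rpl12b, 99 to 170 in rpl14a, 97 to 246 in rpl22a, 6 to 27 in rpl22b, 233 to 328 in rpl7a, 4 to 13 in rpl7b, 10 to 459 in rps0a (459 without rps0a replicate 1), 50 to 89 in rps0b, 21 to 55 in rps18a, 16 to 36 in rps18b and 121 to 330 between small and large. Splicing genes ranged from 0 to 1 in rpl12b, rpl22a, rpl22b and rps0b, 0 to 2 in rpl14a, 5 to 10 in rpl7a, 0 to 8 in rps0a and 0 to 3 between small and large. The snoRNA count between small and large ranged from 17 to 26.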

Other observations

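Against wild type, 6 of 57 snoRNA genes rose and 0 fell in rps0b (10.5%, against 2.61% of all probe sets in either direction), 4 rose in rps18b (7.02%, against 0.323%), 1 rose in rps18a (1.75%, against 0.668%) and 0 passed in rps0a by limma (against 0.28%), where 20 had an unadjusted p under 0.05 (35.1%, against 11.8% of all probe sets). In rpl22a 3 fell and 0 rose (5.26%, against 2.44%), and 1 fell in each of rpl7a, rpl12b and rpl14a (1.75%, against 6.54%, 2.1% and 3.33%). By limma 0 passed in rpl7b, rpl12a and rpl22b, where 2, 6 and 3 had an unadjusted p under 0.05. These were 3.51%, 10.5% and 5.26%, against 2.65%, 8.58% and 4.26% of all probe sets. The median snoRNA difference was 0.51 in rps0a, 0.59 in rps0b, 0.45 in rps18a and 0.62 in rps18b, and it was -0.30 in rpl7a, -0.08 in rpl7b, -0.08 in rpl12a, -0.31 in rpl12b, -0.03 in rpl14a, -0.25 in rpl22a and 0.07 in rpl22b. All these comparisons share the 2 wild-type arrays.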
